A study of Mus musculus with 20 samples.

Results

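The genes examined here encode the nuclear subunits of respiratory complexes III and IV and of ATP synthase, together with cytochrome c. They were taken as the protein-coding entries whose symbol starts with Uqcr, Cox4, Cox5, Cox6, Cox7, Cox8 or Atp5, plus Cyc1 and Cycs. The rule found 46 genes among 39174 genes in the files (22736 of them protein-coding), with 9 in complex III, 1 for cytochrome c, 18 in complex IV and 18 in ATP synthase. Transcript levels were read as FPKM, fragments per kilobase of transcript scaled to the mapped fragments of a library, in 20 RNA-seq libraries from primary motoneurons of CD-1 mouse embryos. The neurons grew in microfluidic chambers that separate axons from cell bodies and dendrites. Control neurons carried a lentiviral vector without a hairpin, and Tdp-43 knockdown neurons carried a lentiviral short hairpin RNA against the transcript of Tardbp, which encodes the RNA-binding protein Tdp-43. Both conditions therefore share lentiviral transduction, and the library titles of the control group name GFP. Each compartment gave 4 control and 6 knockdown libraries of total RNA, amplified by PCR before sequencing. The neurons came from embryonic spinal cord and were enriched with an antibody, so that other cells of the cord may remain. The labels name no culture or batch for a library, and p-values measure only the spread between these libraries, which may be technical.

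Complex III passes electrons from ubiquinol to cytochrome c, the small carrier of the intermembrane space, and complex IV passes them on to oxygen. Both pump protons across the inner mitochondrial membrane, and ATP synthase uses the return flow to make ATP. Axons and synapses depend heavily on this ATP, and all subunits studied here are encoded in the nucleus, translated in the cytosol and imported, whereas a few catalytic subunits of the same complexes are encoded by mitochondrial DNA.

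Promoter windows that reach from 250 bases before to 50 bases after a RefSeq start (assembly GRCm38.p6) were matched for 35 of the 46 genes, 32 of them among the 39 genes with enough signal to be tested. Below are shown those of Atp5g3, which fell in knockdown cell bodies, of Cox6a1, which had the highest level in knockdown axons, and of Atp5b, which encodes the catalytic beta subunit of ATP synthase. Capitals mark matches, on either strand, to the NRF1 core GCATGCGC, the ETS core CCGGAAG, the YY1 core AAGATGGC, the CCAAT box CCAAT and the TATA box TATAAA. The windows lie at chr2:73911277-73911576 on the minus strand, chr5:115348909-115349208 on the minus strand and chr10:128083057-128083356 on the plus strand, and each is written 5′ to 3′ along its gene.
Atp5g3: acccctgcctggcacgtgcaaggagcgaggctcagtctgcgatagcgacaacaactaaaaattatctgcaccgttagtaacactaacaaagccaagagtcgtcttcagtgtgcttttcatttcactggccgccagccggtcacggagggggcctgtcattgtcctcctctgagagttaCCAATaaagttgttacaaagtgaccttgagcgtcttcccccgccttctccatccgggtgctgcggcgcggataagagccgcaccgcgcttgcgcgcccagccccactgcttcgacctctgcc
Cox6a1: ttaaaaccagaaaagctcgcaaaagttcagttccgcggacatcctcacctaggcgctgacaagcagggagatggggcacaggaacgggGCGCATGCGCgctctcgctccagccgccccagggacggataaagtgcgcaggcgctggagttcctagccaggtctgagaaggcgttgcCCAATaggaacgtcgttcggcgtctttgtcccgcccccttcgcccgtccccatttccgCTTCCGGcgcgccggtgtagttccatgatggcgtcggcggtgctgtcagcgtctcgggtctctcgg
Atp5b: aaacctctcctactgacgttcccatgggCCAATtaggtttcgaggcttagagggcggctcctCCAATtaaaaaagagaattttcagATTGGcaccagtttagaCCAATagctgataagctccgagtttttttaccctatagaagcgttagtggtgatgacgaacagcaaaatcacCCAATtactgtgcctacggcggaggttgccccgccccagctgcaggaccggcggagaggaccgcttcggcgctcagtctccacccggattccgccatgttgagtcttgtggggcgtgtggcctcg
The NRF1 core was present in 7 of 32 windows (21.9%) and in 3.61% of the windows of 17492 protein-coding genes, each taken once. The ETS core stood in 9 of 32 (28.1%) against 11.9%, and the YY1 core in 3 of 32 (9.38%) against 3.22%. The CCAAT box stood in 18 of 32 (56.2%) against 39%, and the TATA box in 1 of 32 (3.12%) against 13.3%. Cox6a1, Cycs, Uqcrc1, Uqcr11, Atp5k, Atp5l and Atp5g2 held the NRF1 core. These matches describe letters only and were not tested.

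The libraries differed in depth, and the files give no read counts. Read from the width of the interval that accompanies each FPKM, 1 fragment of Cox6a1 was worth 2.63 to 4.22 FPKM in control somatodendritic libraries and 3.82 to 4.88 in control axonal libraries, but up to 18.3 in knockdown somatodendritic library 6 and 24.8 in knockdown axonal library 5. Tardbp was listed at 30.8, 19, 29.6 and 29.9 FPKM in control somatodendritic libraries and from 0 to 8.54 FPKM in knockdown ones, a mean of 14.7% of control (two-sided exact permutation p = 0.00476, the smallest that 210 splits allow). In axons it was listed at 32.3, 20.1, 32.3 and 13.4 FPKM in control and from 1.21 to 33.2 FPKM in knockdown libraries, a mean of 52.9% of control (two-sided exact permutation p = 0.138), or 35.1% after scaling within the compartment (two-sided exact permutation p = 0.00952), and as deposited knockdown axonal libraries 1, at the upper end and against its label, and 5 overlapped control. Without library 1 the mean was 36.5% of control (two-sided exact permutation p = 0.0159). Of 6 defining motoneuron transcripts, Chat, Mnx1 and Isl2 were at 0 in all 20 libraries, and the summed level of the 6 did not pass 8.90 FPKM in any library. The 4 neuronal markers summed to 1509 to 1736, 1452 to 2295, 391 to 654 and 545 to 1396 FPKM, and the 5 astroglial and progenitor markers to 251 to 337, 183 to 313, 66.4 to 452 and 27.9 to 559 FPKM in control somatodendritic, knockdown somatodendritic, control axonal and knockdown axonal libraries, respectively. In bulk libraries such as these, fewer cells of a type and less RNA per cell cannot be told apart.

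In control somatodendritic libraries, the summed FPKM of complex III was 634 ± 15 (SD, n = 4), that of complex IV 1713 ± 122 and that of ATP synthase 1482 ± 76.7. The 46 genes together took 1.54% ± 0.0530 (SD, n = 4) of all protein-coding FPKM there. In knockdown somatodendritic libraries, complex III summed to 432 ± 73.5 (SD, n = 6), below every control library, complex IV to 1709 ± 169, on both sides of control, and ATP synthase to 1282 ± 71.4. In axons, control libraries gave 346 ± 47 for complex III, 1140.0 ± 299 for complex IV and 979 ± 76.4 for ATP synthase (SD, n = 4). Knockdown axons gave 383 ± 108, 2598 ± 795 and 1245 ± 249, respectively (SD, n = 6). Every knockdown axonal library therefore lay above every control axonal library for complex IV as deposited but not after scaling, whereas the groups overlapped for the other complexes. After scaling over all 20 libraries, the order of the means turned for complex III and ATP synthase, but not for complex IV. Complex III then summed to 484 ± 50.1 in control and 358 ± 55.8 in knockdown axons, ATP synthase to 1369 ± 31.1 and 1190.4 ± 271, and complex IV to 1583 ± 329 and 2595 ± 1112 (SD, n = 4 and 6). The share of complex III in the summed FPKM of the 46 genes was 16.5% ± 0.700 in control and 12.5% ± 1.39 in knockdown somatodendritic libraries, and that of complex IV was 44.5% ± 1.61 and 49.7% ± 0.781 (SD). These sums, on the deposited FPKM scale where no scaling is named, were not tested, and a few highly expressed genes carry most of each sum.

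**Figure D1:**
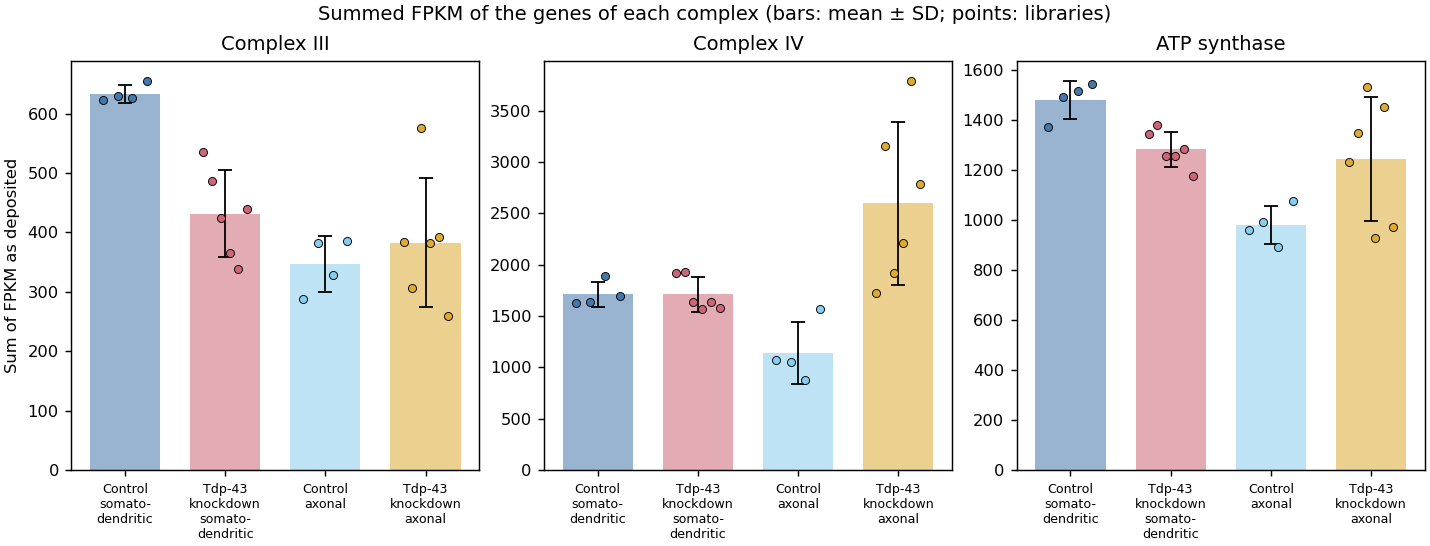
Sum of FPKM over the genes of each complex (vertical axis, as deposited) in the 4 groups; bars show the mean with its SD and points the libraries. Complex III was lower in all 6 knockdown than in all 4 control somatodendritic libraries, and complex IV was higher in all 6 knockdown than in all 4 control axonal libraries on this unscaled axis.

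Among complex III genes, levels in control cell bodies spanned 23.1 FPKM for Uqcrfs1, the Rieske iron-sulfur protein, to 161 FPKM for Uqcrq, a small membrane subunit. The next highest were Uqcr11, another small subunit, at 102 ± 8.33 FPKM and Uqcrc2, a core subunit, at 97 ± 20.3 (SD, n = 4). Cyc1, the subunit that carries the cytochrome c1 heme, was at 38.6 ± 2.47, and Uqcrc1, the other core subunit, at 45.4 ± 6.87. Uqcrb, Uqcr10 and Uqcrh, small subunits of the complex, were at 69.9 ± 5.47, 52.4 ± 27.4 and 44.2 ± 17.8. Cycs, cytochrome c itself, was low, at 15.7 ± 3.73 FPKM in control cell bodies, 12.5 ± 6.78 in knockdown cell bodies, 7.62 ± 3.21 in control axons and 9.21 ± 2.85 in knockdown axons. Its transcript shares stretches of at least 100 bases at 95% identity or more with 23 other annotated genes, so that its level is uncertain.

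Complex IV held the highest levels. Cox8a, a small subunit, had 436, 443, 468 and 415 FPKM in control cell bodies and 273, 259, 192 and 331 FPKM in control axons, and was the highest of the 46 genes in both. Cox6a1, a subunit that sits on the dimer interface, had 306, 274, 282 and 327 FPKM in control cell bodies, and Cox5b, a matrix-side subunit, 249, 262, 303 and 246. Among all protein-coding genes, these 3 ranked 38, 67 and 74 by mean FPKM in that group. The other ubiquitous subunits followed from Cox4i1, the largest nuclear subunit, at 156 ± 45.1, Cox6b1 at 142 ± 43.1 and Cox7b at 141 ± 14 to Cox7a2 at 46.3 ± 13.6 and Cox7c at 42.9 ± 12.8 (SD, n = 4). Cox7a2l, which joins complexes III and IV in supercomplexes and is not a core subunit, was at 35.1 ± 5.12.

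The isoforms known from other tissues were, with 1 exception, listed at 0 in most or all libraries. A listed 0 does not show absence, since Uqcrb, for example, was above 0 in only 18 of the 20 libraries. Cox4i2, the lung and hypoxia isoform, Cox6a2 and Cox8b, isoforms of heart and skeletal muscle, and Cox8c, a testis isoform, were listed at 0 in all 20 libraries. Cox7a1, the isoform of heart and skeletal muscle, was above 0 in 2 libraries, at 3.81 FPKM in control somatodendritic library 3 and 5.02 in knockdown axonal library 3, and Cox7b2 in 1 library, at 3.79 FPKM in control axonal library 3. Cox6b2, known as the testis isoform of Cox6b1, was the exception, at 4.63, 0, 5.02 and 0 FPKM in control cell bodies and 7.88, 12.9, 11 and 31.9 FPKM in control axons. Its axonal values all lay above the somatodendritic ones in control libraries, at levels worth a few fragments each. As deposited, 1 of 39 tested members and 3.19% of all genes tested lay higher in this way in control axons, and 19 members and 18.7% of all genes lay lower. These 6 genes other than Cox6b2, and Atp5l-ps1, an entry named as a pseudogene but typed as protein-coding, had a mean under 1 FPKM over the libraries compared, so that 39 of the 46 genes entered the tests.

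ATP synthase transcripts were led by Atp5j2, a subunit of the membrane part, at 216 ± 10.7 FPKM, Atp5a1, the alpha subunit of the catalytic head, at 209.7 ± 21.7, and Atp5o, the stalk subunit that confers oligomycin sensitivity, at 201 ± 14.8 in control cell bodies (SD, n = 4). Atp5b, the beta subunit that carries the catalytic sites, lies on chr10:128083273-128090391 (GRCm38, plus strand) and had 152, 151, 115 and 139 FPKM in control cell bodies and 129, 145, 132 and 138 in control axons. It ranked 11 of 46 in control cell bodies and 5 in control axons. Atp5h, of the peripheral stalk, followed at 138 ± 29.2, and Atp5d, the delta subunit of the central stalk, stood at 45.7 ± 8.35. Atp5s and Atp5sl, which are members by name but not core subunits, were low, at 3.87 ± 0.780 and 10.4 ± 4.27 FPKM.

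In knockdown cell bodies the order was led by Cox8a (529 ± 106 FPKM), Cox6a1 (390.3 ± 34.5), Atp5j2 (238 ± 36.9) and Cox5b (230.1 ± 27.6) (SD, n = 6). The first 2 overlapped in range, as did the last 2. In control axons Cox8a (264 ± 57.1), Cox6a1 (232 ± 113), Atp5a1 (168 ± 6.17) and Cox5b (159.8 ± 63.7) came first, each overlapping the next (SD, n = 4). In knockdown axons Cox6a1 (906 ± 466) and Cox8a (734 ± 209.7) came before Cox5b (259.6 ± 76.8), Atp5j2 (259 ± 108) and Atp5o (232 ± 106) (SD, n = 6). All 6 knockdown axonal values of Cox8a lay above the highest of Atp5o. Atp5a1 ranked 5 of 46 in control cell bodies, 5 in knockdown cell bodies, 3 in control axons and 12 in knockdown axons. Uqcrq ranked 7 of 46 in control cell bodies, 19 in knockdown cell bodies, 9 in control axons and 10 in knockdown axons.

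The c subunit, which forms the rotating ring of ATP synthase, is encoded by Atp5g1, Atp5g2 and Atp5g3, whose precursors differ while the mature protein is the same. Atp5g3 supplied 79.1% ± 3.82 of their summed FPKM in control cell bodies (SD, n = 4) and 64.9% ± 11.9 in knockdown cell bodies (SD, n = 6), where its range was 50.5% to 84.4%. The share of Atp5g1 was 10.6% ± 3.56 and 24% ± 9.91, and that of Atp5g2 10.2% ± 3.18 and 11.1% ± 4.38. For Atp5g3, 5 of 6 knockdown libraries lay below all control libraries (73.9% to 82.4%), and knockdown library 3, at 84.4%, lay above them. In axons Atp5g3 supplied 65.3% ± 6.81 in control and 71.6% ± 12.7 in knockdown libraries, with overlapping ranges. Atp5g1 shares stretches of 100 bases or more with other annotated genes, as does Atp5g2 with 1 gene, and Atp5g3 with none. These shares were not tested.

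**Figure D2:**
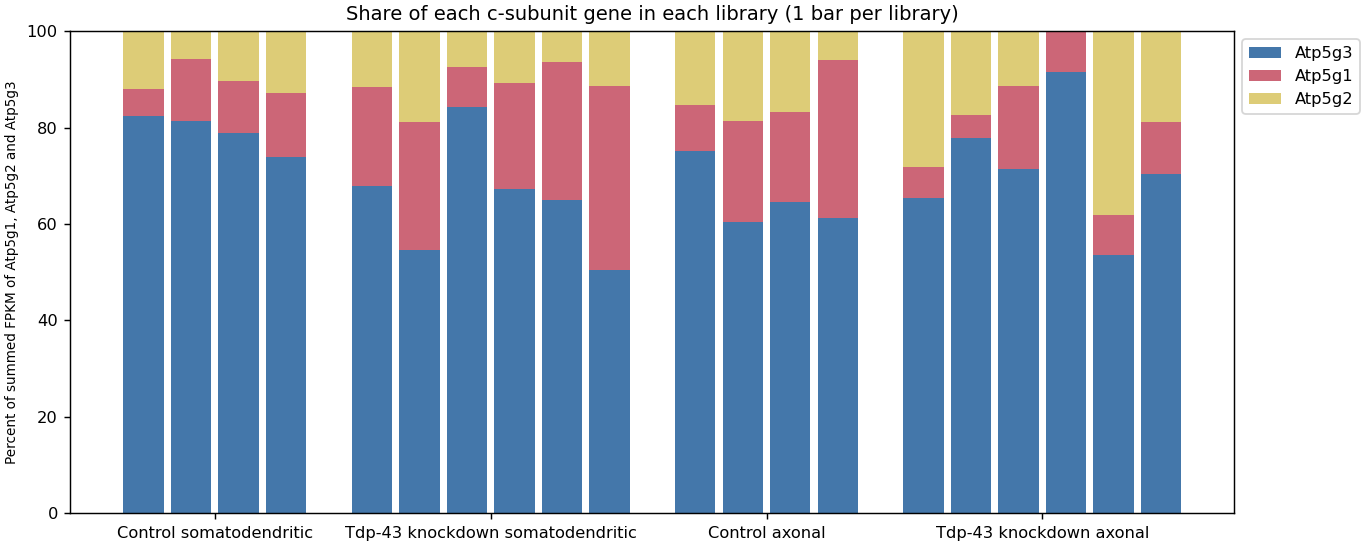
Percent of the summed FPKM of Atp5g1, Atp5g2 and Atp5g3 that each gene supplied (vertical axis), 1 bar per library, grouped by condition and compartment. Atp5g3 was the largest part in all 20 libraries, from 50.5% in knockdown somatodendritic library 6 to 91.5% in a knockdown axonal library.

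The first comparison asked how knockdown changed these transcripts in the somatodendritic compartment. Uqcrq, Cox4i1 and Atp5g3, 1 gene of each complex, fell, and no gene rose. Uqcrq, which lies on chr11:53427922-53430831 (GRCm38, minus strand), had 146, 179, 168 and 152 FPKM in control and from 39 to 76.9 FPKM with a median of 44.9 in knockdown libraries. No knockdown library reached the lowest control library. On the log2(FPKM + 1) scale after scaling within the compartment, the difference was -1.84 ± 0.23 (SE), with an adjusted p of 0.00165 in limma. Cox4i1, on chr8:120668222-120674207 (plus strand), had 155, 129, 220.2 and 120.4 FPKM in control and from 48 to 92.6 FPKM with a median of 64.5 in knockdown libraries. The groups did not overlap, and the difference was -1.37 ± 0.23 (SE, adjusted p = 0.0129, limma). Its exons overlap those of Emc8 on the opposite strand. Atp5g3, on chr2:73908447-73911326 (minus strand), had 115, 97.3, 137 and 103 FPKM in control and from 54.6 to 83.5 FPKM with a median of 69.5 in knockdown libraries. Again all knockdown values lay below all control values, and the difference was -0.91 ± 0.17 (SE, adjusted p = 0.0206, limma). Over all 13762 genes tested in this compartment, 0.756% were called lower and 0.218% higher at an adjusted p under 0.05. As deposited, 4 of 39 members and 1.96% of all genes tested lay lower without overlap, and 1 member and 4.24% of all genes lay higher. Among the other scalings, sets of libraries fitted together and libraries left out, the call of Atp5g3 was lost with all 20 libraries in 1 fit (adjusted p = 0.0648, limma), on deposited FPKM without scaling, where its difference was -0.70 (adjusted p = 0.0575), and without control somatodendritic library 1, 2 or 3 (adjusted p from 0.0507 to 0.101), and that of Cox4i1 without control library 3 (adjusted p = 0.0589, limma). With the replicate numbers as a block, Uqcrq (adjusted p = 0.0508, limma) and Atp5g3 (adjusted p = 0.0891, limma) were not called, while Cox4i1 and 0.131% of all genes were.

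**Figure D3:**
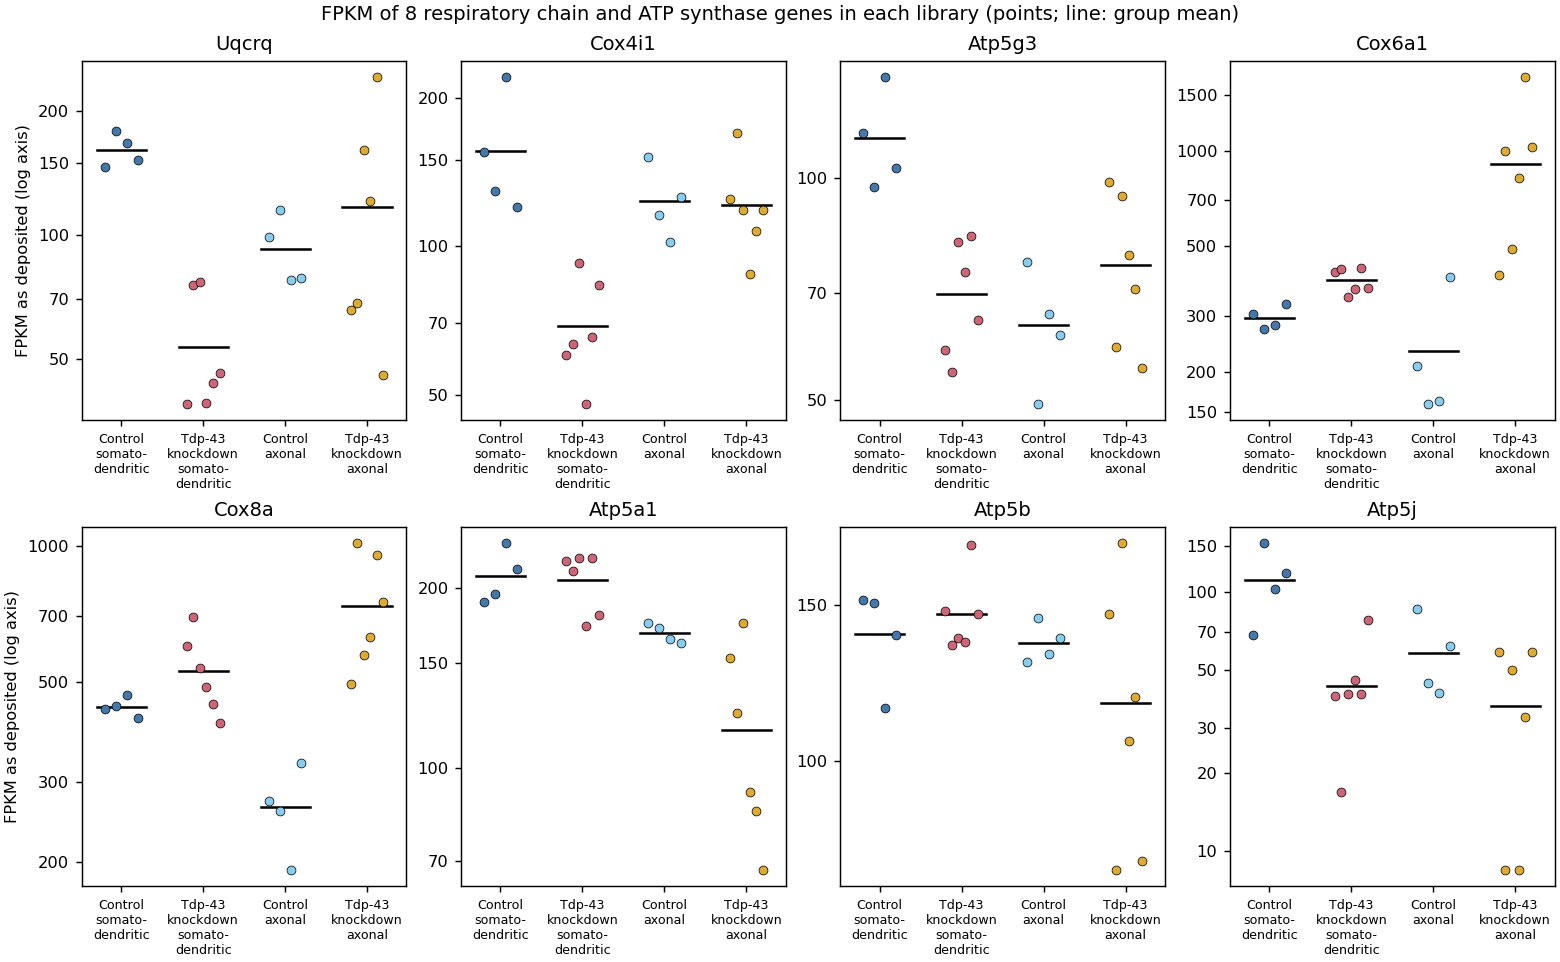
FPKM as deposited (vertical log axes) of Uqcrq, Cox4i1, Atp5g3, Cox6a1, Cox8a, Atp5a1, Atp5b and Atp5j in every library; points are libraries and lines group means. For Uqcrq, Cox4i1 and Atp5g3 all knockdown somatodendritic points lie below all control somatodendritic points, and for Cox6a1 and Cox8a all knockdown axonal points lie above all control axonal points. Of all genes tested, 1.96% and 2.52% were separated in these 2 ways.

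At an unadjusted p under 0.05, 17 of 39 tested genes (43.6%) were lower and 0 were higher in knockdown cell bodies, against 9.22% lower and 4.59% higher of all genes tested. The difference was negative for 33 of 39 genes, and its median was -0.49 against -0.13 over all genes. By complex, 5 of 9 complex III genes, 5 of 12 complex IV genes and 7 of 17 ATP synthase genes were lower at that threshold, with medians of -0.54, -0.35 and -0.69. Besides the called ones, the lower genes were Uqcrfs1 (-1.19), Uqcr11 (-1.30), Uqcrc1 (-0.54) and Uqcr10 in complex III, Cox5a (-1.09) and Cox5b (-0.42), both on the matrix side, Cox6c (-0.98) and Cox7a2l (-0.93) in complex IV, and Atp5j, Atp5c1 (-0.69), Atp5f1 (-0.87), of the peripheral stalk, Atp5s (-1.36), Atp5e and Atp5k in ATP synthase. Uqcr11, for example, had 106, 109.5, 101 and 90.5 FPKM in control and from 16 to 86.5 FPKM with a median of 61.2 in knockdown cell bodies, without overlap. On deposited FPKM the median over all genes moved from -0.13 to 0.04 and that of the members to -0.29. There 13 members were lower and 1 higher, against 5.44% and 9.27% of all genes tested, and the share of higher genes among all genes at an unadjusted p under 0.05 went from 33.2% to 63%. Without the 5 libraries under a relative depth of 0.5, 6 members were called lower instead of 3, all 3 above among them, and 1.35% of all genes were called in either direction. Cell type markers moved both ways. The lowest p in their lists belonged to Fabp7 (-1.14, adjusted p = 0.0648, limma), Olig1 (-0.90, adjusted p = 0.322) and Map2 (0.48, adjusted p = 0.102). On deposited FPKM, 3 of 5 astroglial and progenitor, 2 of 4 oligodendrocyte and Schwann cell and 3 of 4 neuronal markers were positive. Their part was not tested.

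The largest negative differences after knockdown in cell bodies belonged to Atp5k, the e subunit, at -2.37 ± 1.0 (SE, adjusted p = 0.31, limma), Atp5e, the epsilon subunit, at -2.24 ± 0.84 (adjusted p = 0.255), and Uqcr10 at -2.08 ± 0.85 (adjusted p = 0.293), none of which passed. Each was listed at 0 in knockdown somatodendritic library 5 or 6, or in both, and their spread was wide. Atp5j, the coupling factor 6 subunit, had 68, 154, 103 and 118 FPKM in control and from 16.9 to 77.7 FPKM with a median of 40.4 in knockdown cell bodies, with 1 knockdown library inside the control range. Its difference of -1.60 ± 0.35 (SE) just missed the threshold (adjusted p = 0.0523, limma). Its exons overlap on the opposite strand with those of Gabpa, and the sources do not state whether reads were counted by strand. Of the genes encoding the catalytic head, Atp5b (-0.13 ± 0.13) and Atp5a1 (-0.24 ± 0.12) did not pass, and neither did Cox8a (0.03 ± 0.14). The largest positive differences were those of Cox6b2 (0.97), Atp5g1 (0.48), Cox7a2 (0.37), Uqcrh (0.21) and Cox6a1 (0.18), with adjusted p from 0.488 to 0.769 in limma. The sign of Atp5b, Atp5d, Atp5j2, Cox7c and Uqcrb turned positive on deposited FPKM.

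In axons, no member was called at an adjusted p under 0.05 between knockdown and control, where limma called 0.387% of 13958 genes lower and 0.0143% higher. At an unadjusted p under 0.05, 7 of 39 members were lower and 2 higher, against 6.46% and 2.14% of all genes. The lower ones were Atp5a1, Atp5b, Atp5c1, Atp5g1, Atp5j, Cox7a2l and Uqcrfs1, and the higher ones Cox6a1 and Cox8a. Atp5a1 had 175, 172, 164 and 162 FPKM in control and from 67.7 to 175 FPKM with a median of 107 in knockdown axons. Only the highest knockdown library reached the control range, and the difference was -1.14 ± 0.30 (SE, adjusted p = 0.176, limma). Atp5b had 129, 145, 132 and 138 FPKM in control and from 75.3 to 176 FPKM with a median of 112 in knockdown axons. Knockdown libraries lay on both sides of control, and after scaling the difference was -0.81 ± 0.29 (SE, adjusted p = 0.397, limma). With all 20 libraries in 1 fit, Atp5a1 (adjusted p = 0.00223) and Atp5b (adjusted p = 0.0241) were called lower in axons by limma, which then called 1.68% of all genes in either direction. Atp5c1, the gamma subunit of the rotor, was at -0.90 ± 0.35 (adjusted p = 0.454). Without the library labelled knockdown axonal 1, where Tardbp was as high as in control, no member was called in axons either.

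Cox6a1 had 209.8, 159, 162 and 399 FPKM in control and from 405 to 1702 FPKM with a median of 908 in knockdown axons, with no overlap between the groups. The highest value came from knockdown axonal library 5, the shallowest of the 20. After scaling the groups overlapped, and the difference was 1.38 ± 0.46 (SE, adjusted p = 0.332, limma). Cox8a had 273, 259, 192 and 331 FPKM in control and from 495 to 1011 FPKM with a median of 688 in knockdown axons, with a difference of 0.93 ± 0.34 after scaling (SE, adjusted p = 0.433, limma). As deposited, 3 of 39 members and 2.52% of all genes tested lay higher without overlap in knockdown axons, and 0 members and 0.731% of all genes lay lower. Without the 5 shallow libraries the difference was 0.84 for Cox6a1 and 0.60 for Cox8a. Together these 2 genes, chosen after their values were seen, supplied 43% ± 3.23 of complex IV FPKM in control and 61.7% ± 6.62 in knockdown axons, and 43.2% ± 2.49 and 53.6% ± 2.76 in the cell bodies (SD). In both compartments each knockdown library had a larger share than each control library. The share needs no scaling between libraries, but the separation in axons follows in part from the choice of these 2 genes. A share also rises where the other complex IV genes fall, and it was not tested. The 4 nuclear RNA markers Malat1, Meg3, Neat1 and Snhg11 summed to 439.9 to 742 FPKM in control axons and 1155 to 2307 in knockdown axons, with none at 0 in either group, and their part in these differences was not tested.

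All 9 complex III genes had a negative difference in knockdown axons, with a median of -1.02, against 0.22 for complex IV and -0.40 for ATP synthase. The sign of Uqcrq, Cyc1 and Uqcrh turned positive on deposited FPKM. The largest negative differences were those of Uqcrc1 (-1.58 ± 0.75), Atp5j (-1.49 ± 0.54), Uqcrfs1 (-1.48 ± 0.68), Uqcrb (-1.40 ± 1.11) and Atp5g1 (-1.39 ± 0.48), with adjusted p from 0.381 to 0.753 in limma. Uqcrc1, Uqcrfs1 and Uqcrb were each listed at 0 in knockdown axonal library 2 or 5, or in both. The largest positive differences after Cox6a1 belonged to Cox7c (1.0 ± 0.48), Cox8a, Atp5o (0.72 ± 0.37) and Atp5l (0.68 ± 0.59), the g subunit. Uqcrq, the largest called fall in cell bodies, was at -0.40 ± 0.43 in axons (adjusted p = 0.833), where knockdown libraries ranged from 45.6 to 242 FPKM with a median of 94.9 around control values of 99.2, 115, 77.7 and 78.9 FPKM. The median over the 39 genes was -0.40 against -0.17 over all genes. On deposited FPKM these were 0.06 and 0.23, so that the direction of the median depends on the scaling, and then 6 members were higher and 0 lower at an unadjusted p under 0.05, against 7.16% and 2.67% of all genes tested. The share of higher genes among all genes at that threshold went from 24.9% to 72.8%.

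**Figure D4:**
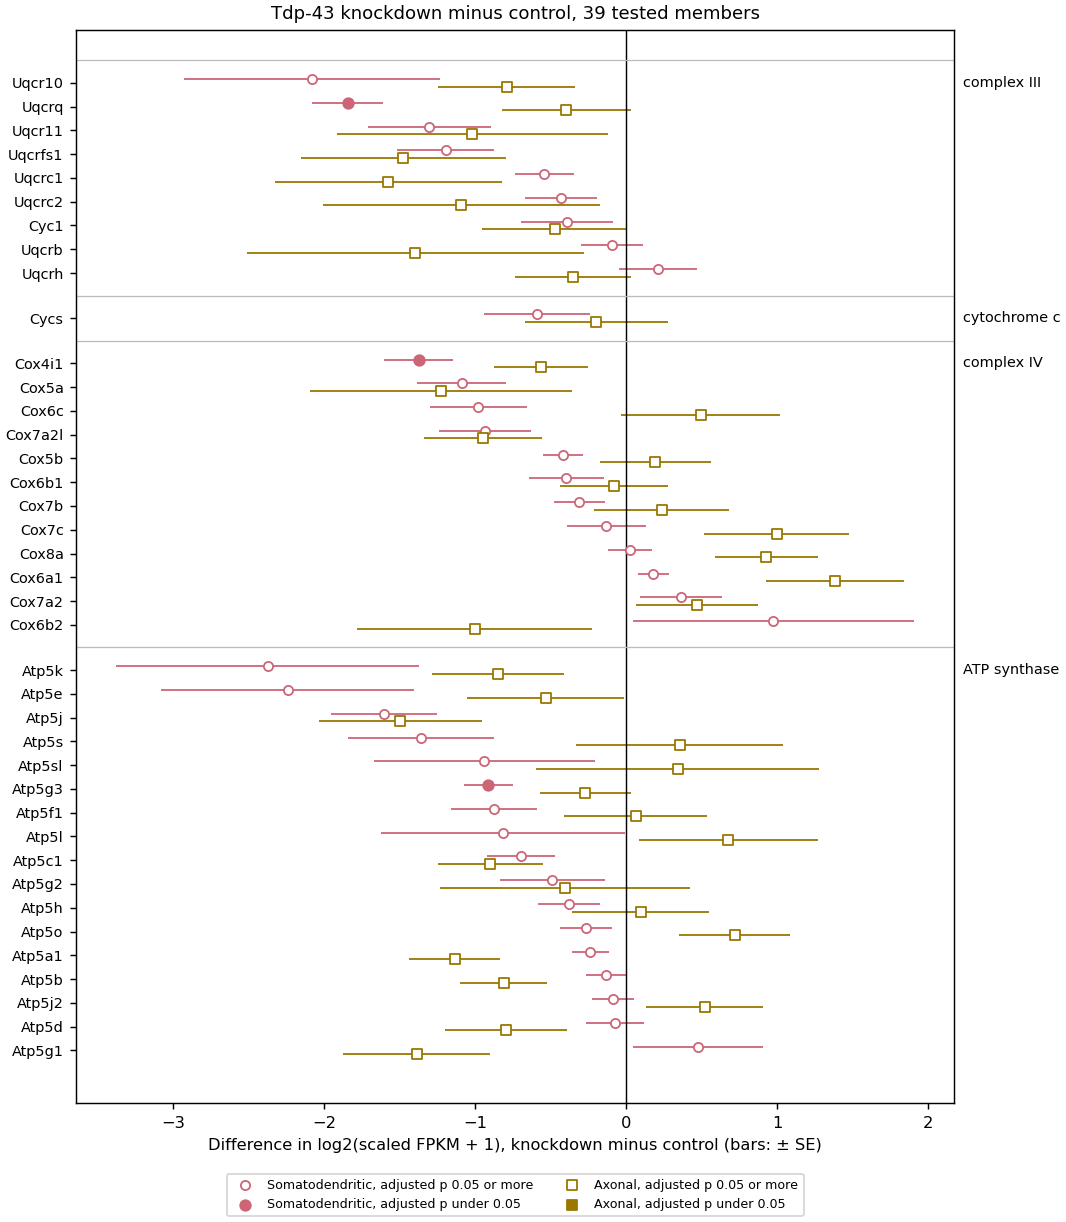
Knockdown minus control in log2(scaled FPKM + 1) (horizontal axis, bars ± SE) for the 39 tested genes, ordered by complex, in somatodendritic (circles) and axonal libraries (squares); filled symbols passed an adjusted p under 0.05. Uqcrq, Cox4i1 and Atp5g3 are the filled circles, no square is filled, and 33 of 39 circles lie left of 0.

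Whether the knockdown effect differed between compartments was tested directly, as the axonal minus the somatodendritic difference in 1 fit of all 20 libraries. No member passed (adjusted p from 0.648 in limma), where 0.0711% of 14062 genes were called lower and 0% higher. At an unadjusted p under 0.05, 6 members had a higher and 3 a lower effect in axons, against 2.75% and 2.86% of all genes. The 6 were Uqcrq (1.42 ± 0.50), Cox4i1 (0.79 ± 0.38), Cox6a1 (1.18 ± 0.51), Cox6c (1.45 ± 0.66), Cox8a (0.88 ± 0.37) and Atp5o (0.96 ± 0.41). The 3 were Atp5a1 (-0.92 ± 0.29), Atp5b (-0.70 ± 0.27) and Atp5g1 (-1.90 ± 0.64). Among members that missed that threshold, the largest positive values belonged to Atp5e (1.65), Atp5s (1.64), Atp5l (1.44) and Atp5k (1.43), and the largest negative ones to Cox6b2 (-1.99), Uqcrb (-1.39) and Uqcrc1 (-1.10), all with a wide error. The median was 0.36 against -0.04 over all genes, and 0.66 against 0.22 on deposited FPKM. There 11 members had a higher and 1 a lower effect in axons at an unadjusted p under 0.05, against 5.03% and 1.23% of all genes, and 80.3% of the genes at an unadjusted p under 0.05 were higher, instead of 49%. A difference between compartments that misses the threshold does not show that the effects were alike.

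In control neurons, the question was which of these transcripts were relatively more or less abundant in axons than in cell bodies. No member passed an adjusted p under 0.05 in limma, where 1.44% of all 14062 genes were called higher and 0.661% lower in axons. At an unadjusted p under 0.05, Cox6b2 and Atp5b were higher and Atp5s was lower, 2 and 1 of 39 genes against 8.09% and 7.31% of all genes. Cox6b2 was at 3.11 ± 0.99 (SE, adjusted p = 0.106) and Atp5b at 0.56 ± 0.21 (adjusted p = 0.185). Atp5s was above 0 in only 1 control axonal library, at 1.55 FPKM, against 3.75, 3.05, 3.74 and 4.93 FPKM in cell bodies (-1.77 ± 0.65, adjusted p = 0.168). The next largest positive differences were those of Atp5g1 (0.87), Atp5k (0.78) and Atp5d (0.45), and the next negative ones those of Atp5sl (-1.24), Uqcr11 (-0.93), Uqcrb (-0.88) and Cox5a (-0.68). With only control libraries in the fit, Cox6b2 (adjusted p = 0.0245) was called higher and Uqcr11 (adjusted p = 0.0488) lower in limma, where 6.9% of all genes were called, and without the 5 shallow knockdown libraries Cox6b2 was called (adjusted p = 0.00656), with 7.51% of all genes. The median was -0.21 against -0.03 over all genes. On deposited FPKM it was -0.78 against -0.47, 11 members that had been positive turned negative, Atp5b and Atp5d among them, 1 member was higher and 12 were lower at an unadjusted p under 0.05, against 3.36% and 16.6% of all genes, 2 members (Atp5o and Cox7b) were called lower, where 4.12% of all genes were called, and the share of higher genes among all at an unadjusted p under 0.05 was 16.8% instead of 52.5%. Markers of other cells also differed between these compartments. The 5 fibroblast markers summed to 1.43 to 11.9 FPKM in control cell bodies and 11.9 to 47.9 in control axons, where Lum was at 0 in all libraries. Dcn, which was not tested, had a mean of 0.826 in cell bodies and 0.607 FPKM in axons, and Col1a1, a collagen gene, was called higher in axons (3.65 ± 0.68, SE, adjusted p = 0.00606, limma). The 3 markers of cells in division, Mki67, Top2a and Cdk1, summed to 44.4 to 65.9 FPKM in control cell bodies and 86.3 to 163 in control axons, and none of them was called. Most markers of neurons and glia lay on the other side. All 4 neuronal markers were lower in control axons at an unadjusted p under 0.05, with a median difference of -1.26, and 2 were called, with the lowest p for Stmn2 (-1.31 ± 0.25, SE, adjusted p = 0.00638, limma). The difference was negative for 4 of 5 astroglial and progenitor markers, Gfap among them (-2.03 ± 0.75, SE, adjusted p = 0.17, limma), and for all 4 tested markers of the oligodendrocyte lineage and Schwann cells. That last list of 5, with 1 gene at 0 in every library, summed to 41.8 to 75.5 FPKM in control cell bodies and 4.73 to 33.6 in control axons. The part of any of these lists in the members' differences was not tested.

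In knockdown neurons, Cox4i1, Cox6a1 and Uqcrq were higher and Atp5a1 was lower in axons than in cell bodies at an adjusted p under 0.05, where limma called 2.93% of all genes higher and 2.42% lower. Cox4i1 had from 48 to 92.6 FPKM with a median of 64.5 in cell bodies and from 88.1 to 170.3 FPKM with a median of 119 in axons of knockdown neurons. These ranges overlapped as deposited and not after scaling, where 1.12% of all genes tested lay higher without overlap. The difference was 1.06 ± 0.24 (SE, adjusted p = 0.0123, limma). The corresponding difference in control neurons was 0.28 ± 0.29, and -0.31 on deposited FPKM. For Cox6a1, knockdown libraries ranged from 346 to 425 FPKM with a median of 392 in cell bodies against the axonal values above, and the difference was 1.31 ± 0.32 (SE, adjusted p = 0.0202, limma). Uqcrq differed by 1.20 ± 0.32 (adjusted p = 0.0313), with overlapping groups. Atp5a1 had from 173 to 225 FPKM with a median of 218 in knockdown cell bodies and differed by -0.65 ± 0.18 (adjusted p = 0.0402), and 1 of 6 axonal libraries reached the somatodendritic range. Without the 5 libraries under a relative depth of 0.5, none of the 4 was called, while 2.63% of all genes were: the differences were 1.0 for Cox4i1, 0.71 for Cox6a1, 0.62 for Uqcrq and -0.65 for Atp5a1. All 5 of those libraries are knockdown libraries, 3 axonal and 2 somatodendritic. With only knockdown libraries in the fit none was called either, and 1.28% of all genes were. Leaving out any 1 of knockdown somatodendritic libraries 1, 2, 3, 5 and 6 or axonal libraries 5 and 6 ended the call of Atp5a1 (adjusted p from 0.0527 to 0.0912), and leaving out knockdown somatodendritic library 1, 4, 5 or 6 ended that of Uqcrq (adjusted p from 0.0569 to 0.0706). Without the library labelled knockdown axonal 1, 7 members were called, and 4.06% of all genes. On deposited FPKM Uqcrq was not called (adjusted p = 0.0764). With the replicate numbers as a block, Uqcrq (adjusted p = 0.0576, limma) and Atp5a1 (adjusted p = 0.0831, limma) were not called, where 2.84% of all genes were.

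At an unadjusted p under 0.05, 10 of 39 genes were higher and 5 lower in knockdown axons than cell bodies, against 9.52% and 11.1% of all genes. Complex IV supplied 6 of the 10, with a median of 0.65 over its 12 genes, whereas the median of complex III was -0.52 and that of ATP synthase 0.11. The largest positive differences were those of Atp5k (2.2 ± 0.70), Atp5e (1.95 ± 0.65), Uqcr10 (1.43 ± 0.62) and Cox6c (1.35 ± 0.42), with adjusted p from 0.0619 to 0.187 in limma. The largest negative ones were those of Uqcrb (-2.27 ± 0.84), Uqcrc1 (-1.24 ± 0.55), Uqcrc2 (-1.22 ± 0.70), Atp5g1 (-1.03 ± 0.40) and Cox5a (-0.88 ± 0.66), with adjusted p from 0.117 to 0.481. The median over all 39 genes was 0.11 against -0.05 over all genes, and -0.14 against -0.24 on deposited FPKM. There 7 members were higher and 6 lower at an unadjusted p under 0.05, against 6.95% and 16.2% of all genes, and 30.1% instead of 46.1% of the genes at an unadjusted p under 0.05 were higher. The summed nuclear RNA markers were at 677 to 1366 FPKM in knockdown cell bodies against 1155 to 2307 in knockdown axons, and Malat1 made up most of both sums. From cell bodies to axons, mean Malat1 went from 680 to 1391, Meg3 from 221 to 250, Neat1 from 1.86 to 6.54 and Snhg11 from 69.9 to 58.9 FPKM. On deposited FPKM the log2 difference was positive for 2 of the 4 and negative for 2. Their part here was not tested either. The 5 fibroblast markers summed to 0 to 13.9 FPKM in knockdown cell bodies and 11.4 to 81.1 in knockdown axons. Of the 3 that were tested, all were higher in axons at an unadjusted p under 0.05 and Col1a1 was called (3.34 ± 0.56, SE, adjusted p = 0.00177, limma), and Lum was at 0 in all axonal libraries. Dcn, not tested either, went from a mean of 0.939 to 0.170 FPKM, at 0 in 5 of 6 axonal libraries. The 3 markers of cells in division summed to 0.955 to 57.4 and 15.6 to 253 FPKM. All 3 were higher in axons at an unadjusted p under 0.05, with a median difference of 1.76, and none was called (lowest adjusted p for Top2a, 0.0823, limma). All 4 neuronal markers had a negative difference in knockdown neurons too (median -1.27), 2 of them called, as had all 5 astroglial and progenitor markers and all 4 tested markers of the oligodendrocyte lineage and Schwann cells, none called. The last of these lists summed to 22.4 to 90.4 FPKM in cell bodies and 2.79 to 43.6 in axons. The part of these markers here was not tested.

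**Figure D5:**
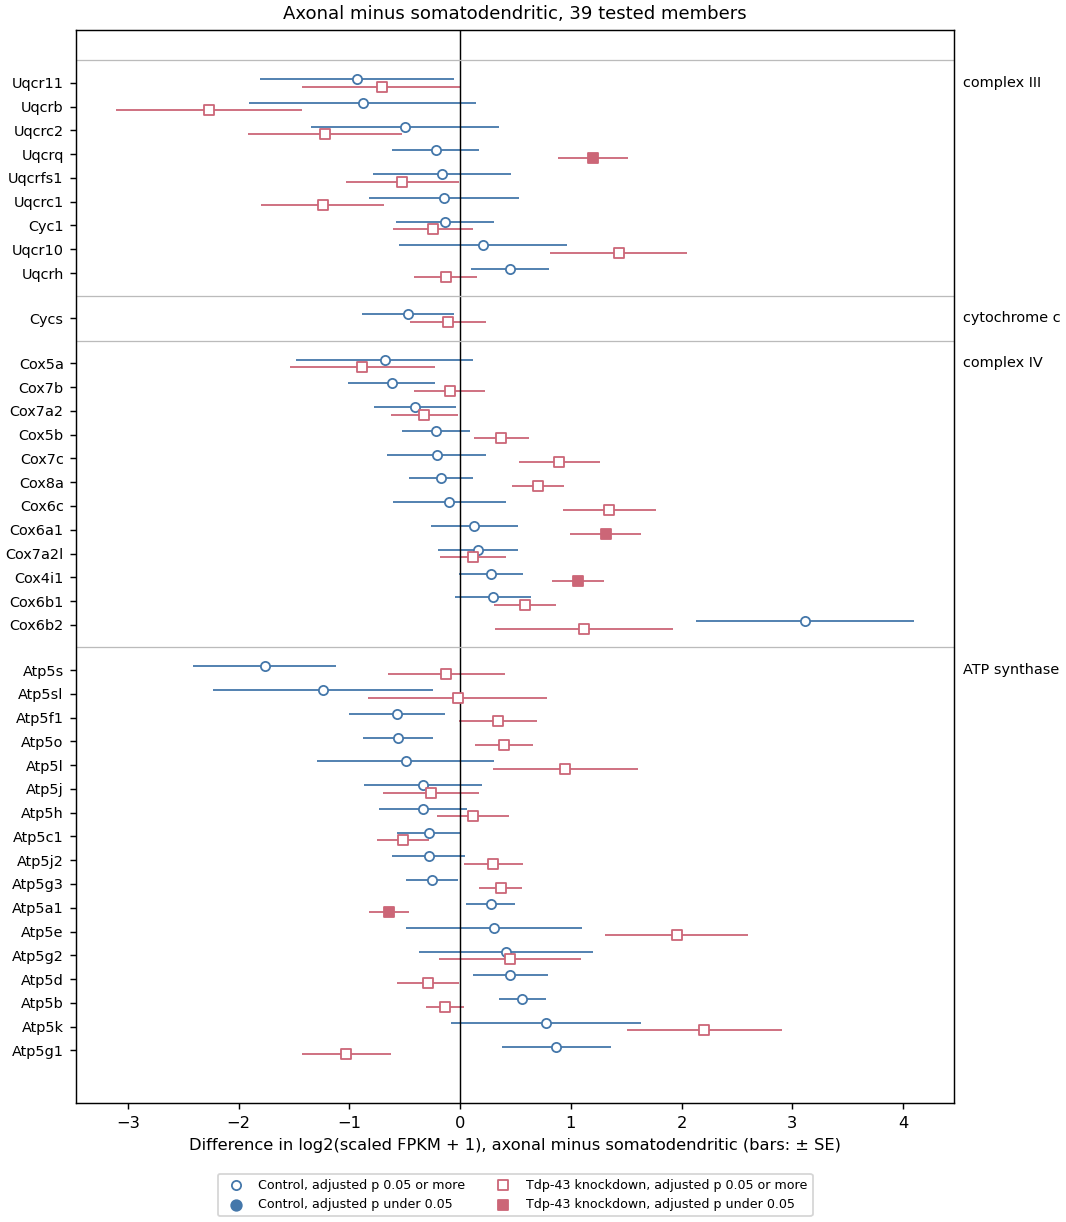
Axonal minus somatodendritic in log2(scaled FPKM + 1) (horizontal axis, bars ± SE) for the 39 tested genes, ordered by complex, in control (circles) and knockdown libraries (squares); filled symbols passed an adjusted p under 0.05. Cox4i1, Cox6a1 and Uqcrq are filled to the right of 0 and Atp5a1 to the left in knockdown libraries, and no control symbol is filled.

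The mitochondrially encoded partners, mt-Cytb of complex III, mt-Co1, mt-Co2 and mt-Co3 of complex IV, and mt-Atp6 and mt-Atp8 of ATP synthase, were compared next. In knockdown cell bodies, mt-Atp6 (-0.74 ± 0.13, SE, adjusted p = 0.0201) and mt-Co2 (-0.66 ± 0.14, adjusted p = 0.042) fell in limma, where 0.756% of all genes were called lower, with a median of -0.47 over the 6. On deposited FPKM neither was called, and the median was -0.26. In axons against cell bodies of knockdown neurons, mt-Co1 (1.70 ± 0.45), mt-Co2 (1.98 ± 0.43) and mt-Co3 (1.56 ± 0.42) were higher at an adjusted p under 0.05, and all 6 had an unadjusted p under 0.05, against 2.93% and 9.52% of all genes at these thresholds. In control neurons all 6 were positive as well, with a median of 1.11 (0.52 on deposited FPKM), and 2 had an unadjusted p under 0.05 (0 on deposited FPKM), against 8.09% of all genes. In knockdown against control axons, 0 passed, 1 (mt-Atp8, -1.39 ± 0.64) was lower at an unadjusted p under 0.05, against 6.46% of all genes, and the median was 0.07 (0.59 on deposited FPKM). Of 5 entries listed as further proteins of the same complexes, 2010107E04Rik, the mitochondrial proteolipid of ATP synthase, was at -1.19 ± 0.33 in control axons against cell bodies (adjusted p = 0.0635) and at 0.79 ± 0.27 in knockdown neurons (adjusted p = 0.0909). Its difference in the knockdown effect between compartments, 1.98 ± 0.43, had an adjusted p of 0.136 in limma. On deposited FPKM, 3 of these 5 entries were called lower in control axons than cell bodies, where 4.12% of all genes were called in either direction. In knockdown against control axons, 1 was called higher, where 0.408% of all genes were called, and between knockdown compartments 0 were called.

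Among other lists in knockdown against control cell bodies, 11 of 36 nuclear complex I genes were lower and 1 higher at an unadjusted p under 0.05 (median -0.54), with none called after adjustment. Over all genes tested, 9.22% were lower and 4.59% higher at that threshold, with a median of -0.13. Of 35 assembly factors of these complexes, 0 were lower and 3 higher at that threshold (median -0.27). Citric acid cycle enzymes gave 5 of 17 lower, protein import factors 2 of 15 lower, regulators of respiratory chain genes 0 of 13 in either direction, and complex II 1 of 4 lower. Cytosolic ribosomal protein genes, short and highly expressed like many members, gave 40 of 82 lower and 2 higher, with 8 called lower after adjustment, against 0.756% of all genes. On deposited FPKM the counts were 6 lower for complex I and 24 lower for the ribosomal proteins. Citric acid cycle enzymes then gave 2 higher and 2 lower and protein import factors 3 higher and 0 lower, so that the direction of these lists depends on the scaling, against 9.27% higher and 5.44% lower of all genes. The lowest p in each list belonged to Ndufa13 at -0.93 (adjusted p = 0.114), Cox10 at 1.13 (adjusted p = 0.139), Suclg2 at -1.75 (adjusted p = 0.129), Tomm5 at -0.70 (adjusted p = 0.322), Esrra at -0.81 (adjusted p = 0.651), Sdhd at -1.09 (adjusted p = 0.0229), Rps3a1 at -1.61 (adjusted p = 0.00409) and, among the 5 further entries, 1110058L19Rik at -2.10 (adjusted p = 0.185), all from limma. RefSeq names 1110058L19Rik as Sdhaf4, an assembly factor of complex II, so that this list holds 4 proteins of the complexes.

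In knockdown against control axons, 3 of 36 complex I genes, 2 of 34 assembly factors, 1 of 17 citric acid cycle enzymes and 16 of 82 ribosomal protein genes were lower at an unadjusted p under 0.05, and 1, 2, 0 and 4 were higher. Of all genes, 6.46% were lower and 2.14% higher. On deposited FPKM the ribosomal protein genes gave 16 higher and 5 lower and complex I 4 higher and 0 lower, so that their direction depends on the scaling, and 7.16% of all genes were higher and 2.67% lower. The lowest p belonged to Ndufv3 at 0.94 (adjusted p = 0.387), Coa3 at -2.58 (adjusted p = 0.255), Fh1 at -2.12 (adjusted p = 0.373), Rps3 at -2.04 (adjusted p = 0.0161), 2010107E04Rik at 1.36 (adjusted p = 0.199), Tomm6 at 0.63 (adjusted p = 0.678), Gabpa at 1.13 (adjusted p = 0.634) and Sdhd at -0.29 (adjusted p = 0.894). In axons against cell bodies of knockdown neurons, 63 of 82 ribosomal protein genes were higher and 39 called after adjustment, against 5 of 36 complex I genes. On deposited FPKM 49 and 2 were higher at the unadjusted threshold, against 6.95% of all genes. After scaling, 9.52% of all genes were higher at the unadjusted and 2.93% at the adjusted threshold. The lowest p belonged to Rpl32 at 2.02 (adjusted p = 0.000606), Ndufs6 at 1.98 (adjusted p = 0.0671), Uqcc2 at 1.22 (adjusted p = 0.0254), an assembly factor of complex III, Idh3a at -0.97 (adjusted p = 0.0402), Tomm70a at -0.71 (adjusted p = 0.118), Gabpa at 1.57 (adjusted p = 0.066) and Sdhc at -0.80 (adjusted p = 0.0977). In control neurons, 26 of 82 ribosomal protein genes were higher in axons, against 8.09% of all genes, and 8 on deposited FPKM, against 3.36% of all genes there. The lowest p belonged to Rps3 at 1.97 (adjusted p = 0.00235), Ndufb3 at -2.38 (adjusted p = 0.0849), Cox16 at -2.58 (adjusted p = 0.168), Idh2 at 2.47 (adjusted p = 0.148), Tomm70a at -0.90 (adjusted p = 0.151), Tfb1m at 1.44 (adjusted p = 0.436) and Sdhc at -0.69 (adjusted p = 0.34). For the difference between compartments it belonged to Uqcc2 at 1.37 (adjusted p = 0.814), Ndufv3 at 1.10 (adjusted p = 0.829), Rps29 at 1.61 (adjusted p = 0.628), Suclg2 at 1.55 (adjusted p = 0.935), Timm44 at -1.48 (adjusted p = 0.96), Gabpa at 1.63 (adjusted p = 0.889), Sdhd at 0.76 (adjusted p = 0.935) and, of the mitochondrial subunits, mt-Co2 at 0.70 (adjusted p = 0.962), none of which passed.

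Likeness of pattern was measured as Pearson's r of scaled log2(FPKM + 1) over the 20 libraries among 5744 genes whose mean reached 10 FPKM. The libraries share depth and composition, and r is a description. Nearest to Uqcrq were Idi1 (r = 0.88), Mif (r = 0.80), Gm12174 (r = 0.78), Naa50 (r = 0.75), Med10 (r = 0.74). Its nearest member was Cox4i1 (r = 0.72), in place 10 of all genes. Nearest to Atp5b were Gm26924 (r = 0.84), Lars2 (r = 0.84), mmu-mir-6236 (r = 0.83), mt-Tf (r = 0.81), mt-Ta (r = 0.81). The first of these, a lincRNA entry, had a mean of 177791 FPKM, and none of the 5 is a member. The nearest member to Atp5b was Atp5a1 (r = 0.69), in place 60. Over the other 36 members above 10 FPKM, the median r was 0.22 with Uqcrq and 0.16 with Atp5b, against -0.05 and 0.03 over all genes.

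The transcripts are short. The longest coding transcript of the 39 tested genes in GENCODE M21 had a median of 809 bases, against 3292 bases for 11923 expressed coding genes (mean over all libraries of 1 FPKM or more). The hexamer TGTGTG, a form of the UG repeats that Tdp-43 is known to bind, stood in the longest coding transcript of 19 of the 39 genes (48.7%), against 75.8% of those 11923 genes and 68.8% of the 8711 among them within the members' length range. Per kilobase, the hexamer occurred 0.913 times in the members, 0.924 times in the 11923 genes and 0.870 times in the 8711. This motif search was chosen after the values were seen and covers no intron. Of the 39 tested genes, 22 share no stretch of at least 100 bases at 95% identity with another annotated gene, Uqcrq, Cox4i1, Atp5g3, Cox6a1, Cox8a, Atp5a1 and Atp5b among them. The median differences of these 22 genes were -0.41 in knockdown against control cell bodies and -0.50 in axons. Between knockdown compartments their median was -0.13, against 0.11 over all 39 genes, and for the difference of effects 0.080 against 0.36.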

How the data were processed

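RNA-seq was performed on total RNA of the somatodendritic and axonal compartments of cultured motoneurons, and the libraries were mapped to GRCm38. The deposited values are FPKM per Ensembl gene with an interval, which the authors made with Cufflinks 2.2.1, 1 library at a time (FastQC 0.10.1 is also named in the submitters' processing notes). The version of the aligner, the annotation release and strandedness are not given in the sources used here. Read totals are unknown, so depth was read from the upper bound of each FPKM interval, taken as 2 SD of a fragment count, over 673 genes: relative depth ran from 0.103 to 1, and 5 libraries were under 0.5. Genes above 0 numbered 7632 to 15453 a library.

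Each library was divided by its median of ratios, taken from genes at 1 FPKM or more in all libraries fitted. These were 7619 genes in somatodendritic, 5112 in axonal and 4577 in all 20 libraries. Then log2(scaled FPKM + 1) was tested with limma 3.58.1 (R 4.3.3, trended prior) where a gene's mean reached 1 FPKM over those libraries. Fold changes on this scale understate changes of low genes. Knockdown was compared with control in the 10 libraries of a compartment, and compartments and the difference of effects in all 20. P-values were adjusted by Benjamini-Hochberg over all genes tested, also where a single gene is printed. Tardbp was tested with a two-sided exact permutation test. Scripts were tested on simulated data. Values under 0.001 FPKM were read as 0.

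The members and all lists were chosen with earlier results of these data known. Named are the members with an adjusted p under 0.05, the 5 largest rises and falls of each comparison, the 3 highest of each complex, Uqcrq and Atp5b, tissue isoforms, the Atp5g genes, untested members, the lowest p of each other list, and the 5 genes most like Uqcrq and Atp5b. Gene positions and transcripts are those of GENCODE M21, and near-identical copies were searched with BLAST 2.17.0. Alternatives covered scaling (none, quantile, equal sums of nuclear coding FPKM), pseudocounts of 0.1 and 5, no filter or 10 FPKM, array weights, the replicate block, other sets of libraries and leaving out each library. Figures were drawn with matplotlib 3.10.9.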

Additional observations from a re-analysis of the deposited data

Results flagged for a closer look

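In 12 of 156 groups tested, 4 or 6 libraries of 1 tested gene each, the highest or lowest FPKM as deposited lay far from the others by Dixon's test. Chance flags about 1 in 20 groups. Of the 12, 3 belong to knockdown axonal library 5 and 2 to knockdown somatodendritic library 6, both shallow. In knockdown axonal library 5, Cox7c was at 148 FPKM against 45 to 79.8 in the other 5 libraries, Atp5k at 75.3 against 16.1 to 31.8, and Uqcrh at 85.2 against 32.4 to 45.2. In knockdown somatodendritic library 6, Cox7a2l was at 44.6 FPKM against 13.9 to 21 and Cycs at 25.9 against 7.11 to 12. In knockdown somatodendritic library 5, Atp5b was at 175 FPKM against 135 to 148. In knockdown axonal library 3, Atp5d was at 57.6 FPKM against 22.4 to 35.3 and Cox7a2l at 44.1 against 12.2 to 20.3.

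In control libraries, Atp5l was at 34.4 FPKM in somatodendritic library 1 against 17.2 to 18.5 in the other 3, and Atp5s was at 1.55 FPKM in axonal library 1 and at 0 in the others. Atp5g2 was low in somatodendritic library 2, at 6.85 FPKM against 16.8 to 18, and in axonal library 4, at 5.93 FPKM against 15.3 to 17.1. None of the 3 members that fell in knockdown cell bodies is among these values. Their causes were not tested.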

How the results depend on the processing

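Depth limits what low members can show, as 1 fragment is worth several FPKM, and the scaling moves every comparison. On FPKM as deposited, the members' median log2 difference was -0.78 in control axons against cell bodies, where 2 members were called and Atp5b turned to -0.025, -0.14 in knockdown axons against cell bodies, -0.29 for knockdown against control in cell bodies, 0.065 in axons and 0.66 for the difference of effects. With equal sums of nuclear coding FPKM, the control compartment median was -0.38. Each further count of members called is followed by the percent of all genes called in that fit. For knockdown axons against cell bodies, 7 members were called with a filter at 10 FPKM (13.4%), 2 with array weights (4.93%), and 0 with only knockdown libraries (1.28%). Array weights gave 3 calls for control axons against cell bodies (8.91%) and 9 for knockdown against control in cell bodies (3.14%). All 20 libraries in 1 fit gave 2 calls for knockdown against control in axons (1.68%), and only control libraries 2 for their compartments (6.9%).

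2 alternatives were chosen after seeing the data. Without the 5 libraries under a relative depth of 0.5, 1 member was called between control compartments (7.51%), 0 between knockdown compartments (2.63%), where Atp5j turned from -0.26 to 0.81, and 6 between knockdown and control cell bodies (1.35%). Among the 22 members without a near-identical copy, the median was -0.13 between knockdown compartments and 0.080 for the difference of effects. Same-numbered libraries did not deviate together (correlations from -0.04 to 0.07), and the best match among other numbers reached only 0.0961. With all correlations this close to 0, the check cannot tell whether the numbers pair libraries. With the replicate block, 1 member (Cox4i1) was called for knockdown against control in cell bodies (0.131%), where Uqcrq (adjusted p = 0.0508, limma) and Atp5g3 (0.0891) were not, and 2 between knockdown compartments (2.84%), where Atp5a1 (0.0831) and Uqcrq (0.0576) were not, and the median of knockdown against control in axons was -0.21; it changed the call of no member in the other comparisons.

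Leaving out 1 library gave 1 to 7 calls for knockdown against control in cell bodies (1 without control somatodendritic library 3, 0.423%, and 7 without knockdown somatodendritic library 6, 1.43%) and 2 to 7 between knockdown compartments (2 without knockdown somatodendritic library 5, 3.17%, or 6, 3.74%, and 7 without knockdown axonal library 1, 4.06%, or 3, 8.05%). In the other 3 comparisons no member was called in any of these fits. Tardbp in axons was 35.1% of control after scaling (two-sided exact permutation p = 0.00952) and 36.5% to 62.5% without 1 library each. Scaled over all 20 libraries, the sums in control cell bodies, knockdown cell bodies, control axons and knockdown axons were 590, 346, 484 and 358 FPKM for complex III, 1595, 1365, 1583 and 2595 for complex IV, and 1379, 1023, 1369 and 1190.4 for ATP synthase. Of the 132 other values of summed results under alternatives, 101 moved by less than the limits, and of 2093 values of single genes, 26 newly passed the threshold, 18 no longer did, and 79 changed sign, 29 of them on deposited FPKM. Atp5b and Atp5j, above, were those among the 79 with an unadjusted p under 0.05 on either side.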
